A study of Homo sapiens with 3 samples.

Results

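Long unbroken runs of capture targets with a deposited score of 0 were examined in the design behind 3 RNA capture libraries of K562, a human erythroid and myeloid leukaemia line. A run was every maximal stretch of 100 or more consecutive targets with score 0 on chromosomes 1 to 22, and a run inside the 20 to 33 Mb part of chromosome 9 (1 run of 221 targets) was left out. There were 46 such runs with 5862 targets, out of 363390 targets on the autosomes and 377858 in the whole list. The libraries are replicates 1, 2 and 3 of 1 group of K562 cultures, made from ribosomal RNA-depleted total RNA (5 µg each) with ERCC spike-in RNA at 1% (replicates 1 and 2) or 1.08% (replicate 3). The target list is common to all 3 libraries and holds no value per library, so no comparison between groups and no replicate error exists for it. The values below count a fixed list in full, and no test was run on them. No source used here says what the score measures. A score of 0 was therefore not read as absence of transcription, the working name of silent runs could not be checked, and the stretches are called zero-score runs.

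The study looked for branchpoints. During splicing the cut 5′ end of an intron is joined to a base near its 3′ end, the branchpoint, and the looped intron is then debranched and degraded. Reads across that junction are rare in ordinary RNA sequencing, and the array therefore held the 100 nt at each end of annotated introns. A gene with many introns gives many targets, usually in pairs on either side of each exon, and the gap between the targets of a pair is about an exon's length. The design left out intron ends that overlap an exon or a stretch highly transcribed in K562, so part of the intron ends of active genes is missing from the list.

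The runs were chosen by the score alone, and that their targets score 0 is not a finding. Of all autosomal targets, 47.0% scored 0, and the runs held 3.43% of those (1.61% of autosomal targets). Run length fell off steeply: 15684 runs were a single target, 13096 held 2 to 9, 3011 held 10 to 24, 1055 held 25 to 49 and 294 held 50 to 99. The runs studied held 100 to 241 targets, with a median of 118. Just inside the limit lay runs of 100 targets led by FCRL5, PLA2R1, JAKMIP2 and CARMIL1. Just outside it lay runs of 99 led by UNC80, SCN10A, CADPS, NAALADL2 and LOXHD1, and runs of 97 led by IQCM and ANKRD30B. The limit of 100 is therefore a place on a continuous slope.

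Genes were attached to targets by the series of distances between neighbouring targets, matched to the introns of each gene in GENCODE release 29. Such distances do not depend on the genome build, and no coordinate was converted. A gene counted when 10 or more targets matched at 1 shift. This placed 4819 run targets (82.2%) in 185 genes, against 73.7% of all autosomal targets. Of the 185 genes, 164 were protein-coding. They were 1.63% of the 10065 protein-coding genes matched on the autosomes, which is close to the share of targets in runs and is no result about the genes. Their median number of targets was 22, against 20 for all matched protein-coding genes. In 99 of them every matched target lay in a run. Over all matched protein-coding genes, 1023 (10.2%) scored 0 at every matched target. The 99 are a subset of these by construction.

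The targets are pieces of introns, and their own sequences were not used here because no genome of the hg19 build was at hand. Promoters of the genes wholly inside runs are shown instead, since promoter sequence played no part in choosing the runs. RefSeq promoters (GRCh38.p14) were matched by symbol for 77 of 95 such genes, and 4 others of the 99 were not used here. The 7 shown are examples of either kind of promoter, picked after their values were seen. The sequences run 5′ to 3′ on the gene's strand and are the 100 bases before the start. In the first 4, capitals mark TATAAA, a form of the TATA box at which transcription is positioned. In the last 3, which hold no TATAAA, capitals mark CG dinucleotides, which are dense in CpG islands.
PNLIP (chr10:116545831-116545930, plus): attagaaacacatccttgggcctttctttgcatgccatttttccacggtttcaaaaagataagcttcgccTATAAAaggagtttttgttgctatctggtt
CSN2 (chr4:69965729-69965828, minus): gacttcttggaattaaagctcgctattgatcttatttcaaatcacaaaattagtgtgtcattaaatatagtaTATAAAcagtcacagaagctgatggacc
SERPINB2 (chr18:63887605-63887704, plus): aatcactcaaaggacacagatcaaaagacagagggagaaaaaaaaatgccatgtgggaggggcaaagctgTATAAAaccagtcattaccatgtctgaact
MMP10 (chr11:102780629-102780728, minus): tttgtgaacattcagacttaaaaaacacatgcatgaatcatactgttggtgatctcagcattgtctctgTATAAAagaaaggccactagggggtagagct
CNTN6 (chr3:1092924-1093023, plus): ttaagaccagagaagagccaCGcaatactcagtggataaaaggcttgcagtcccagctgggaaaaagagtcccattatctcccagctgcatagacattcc
CNTN4 (chr3:2098766-2098865, plus): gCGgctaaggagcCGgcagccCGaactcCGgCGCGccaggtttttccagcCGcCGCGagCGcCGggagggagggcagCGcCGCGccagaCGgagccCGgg
KCNMA1 (chr10:77637809-77637908, minus): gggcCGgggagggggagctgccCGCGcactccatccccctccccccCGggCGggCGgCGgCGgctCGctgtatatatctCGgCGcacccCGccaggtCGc

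Genes wholly inside runs often had promoters poor in CG. The median number of CG dinucleotides in the 250 bases before the start was 4 in the 77 genes (quartiles 1 and 17), against 19 in 7888 other matched protein-coding genes (quartiles 9 and 28). It was 5 or fewer in 43 of the 77 (55.8%), against 17.9% of the other matched genes and 38.7% of all 27305 promoters of that length in the table. Other genes that scored 0 at every matched target lay between, with a median of 8 and 41.2% at 5 or fewer (706 genes). Many of the CG-poor genes inside runs were neighbours of the same family in the same run, such as SERPINB, FCRL and KRT genes. The 77 genes are therefore not independent of each other, and no share per run or per family was computed. Median GC content was 50.8% in genes inside runs, against 64.0% in the other matched genes. TATAAA stood within the last 50 bases before the start, on the gene's strand, in 8 of the 77 (10.4%), against 6.66% of the other genes with score 0 at every matched target, 2.18% of the other matched genes and 2.92% of all promoters. On both strands of the full 250 bases it was present in 20.8% of the 77, against 14.0% of the other genes with score 0 at every matched target, 6.74% of the other matched genes and 11.1% of all promoters. The 4 TATAAA matches printed above begin 28 to 31 bases before the start.

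**Figure D1:**
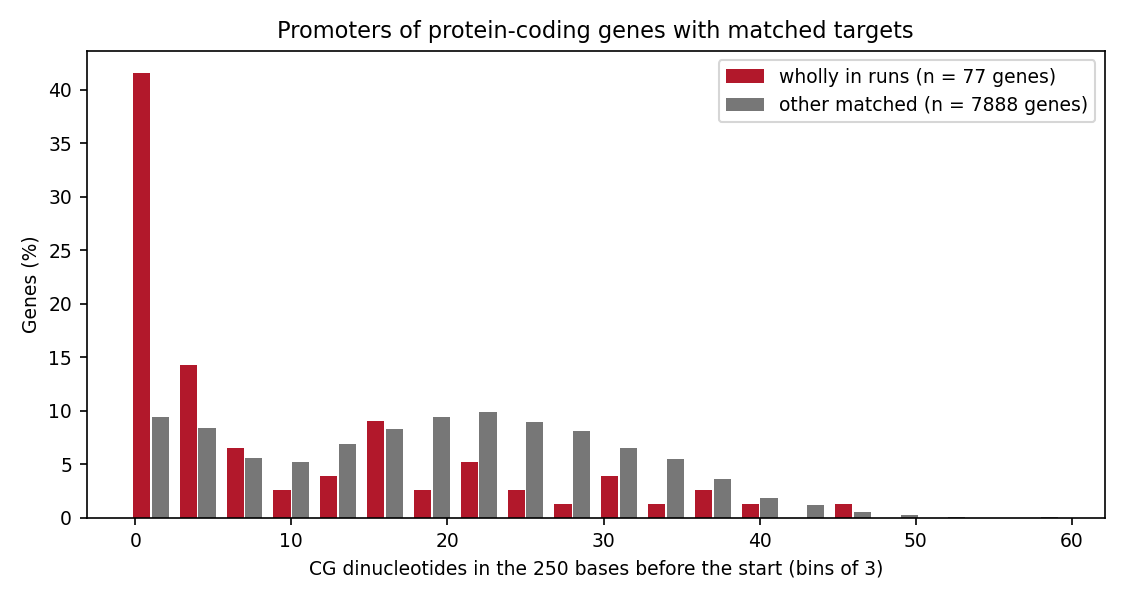
Share of genes (%) by number of CG dinucleotides in the 250 bases before the start, in bins of 3, for 77 genes wholly inside zero-score runs (red) and 7888 other matched protein-coding genes (grey). The first bin, 0 to 2, holds 41.6% of the genes in runs.

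CG-poor and CG-rich promoters occurred side by side in the same run. The contactins CNTN4 and CNTN6, neuronal adhesion molecules, lay in 1 run of chromosome 3, and the 250 bases before their starts held 40 CG and 4 CG. KCNMA1, the large-conductance calcium-activated potassium channel, had 46 CG and led a run of its own. The 7 genes with no CG were SERPINB2, MMP8, ODAM, THEMIS, SULT1B1, FCRL4 and KRT84. The promoters of FCRL2, FCRL3, FCRL4 and FCRL5, neighbours in a run of chromosome 1, held 0 to 3 CG.

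The runs covered 52.0 Mb in all and lay on 17 of the 22 autosomes. Chromosomes 1, 2, 10 and 11 had 5 runs each, and chromosomes 4 and 12 had 4. Chromosome 10 had the largest share of its targets in runs (3.90%), followed by chromosome 11 (3.39%) and chromosome 4 (3.32%). Chromosomes 16, 17, 19, 21 and 22 had none. On 4 of these, all but chromosome 21, between 32.0% and 37.8% of targets scored 0, below every autosome that had a run, of which the lowest was chromosome 20 with 45.2%. Chromosome 21 had 46.5% and 4381 targets, the fewest of any autosome.

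Runs differed far more in span than in number of targets. The limit of 100 targets and the steep fall in run length keep the target numbers in a narrow range. The contrast and the range of density are therefore descriptions only. The span ran from 0.0422 Mb to 4.81 Mb with a median of 0.881 Mb (quartiles 0.289 and 1.56 Mb). It exceeded 1 Mb in 19 runs and was under 0.3 Mb in 14. Density ran from 25.8 to 2395 targets per Mb, a 92.7-fold range, with a median of 159. Over their summed span the runs held 113 targets per Mb, against 120 for other targets on the same chromosomes, and the density in runs was the higher on 9 of 17 chromosomes. The runs were thus neither sparse nor dense as a class.

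**Figure D2:**
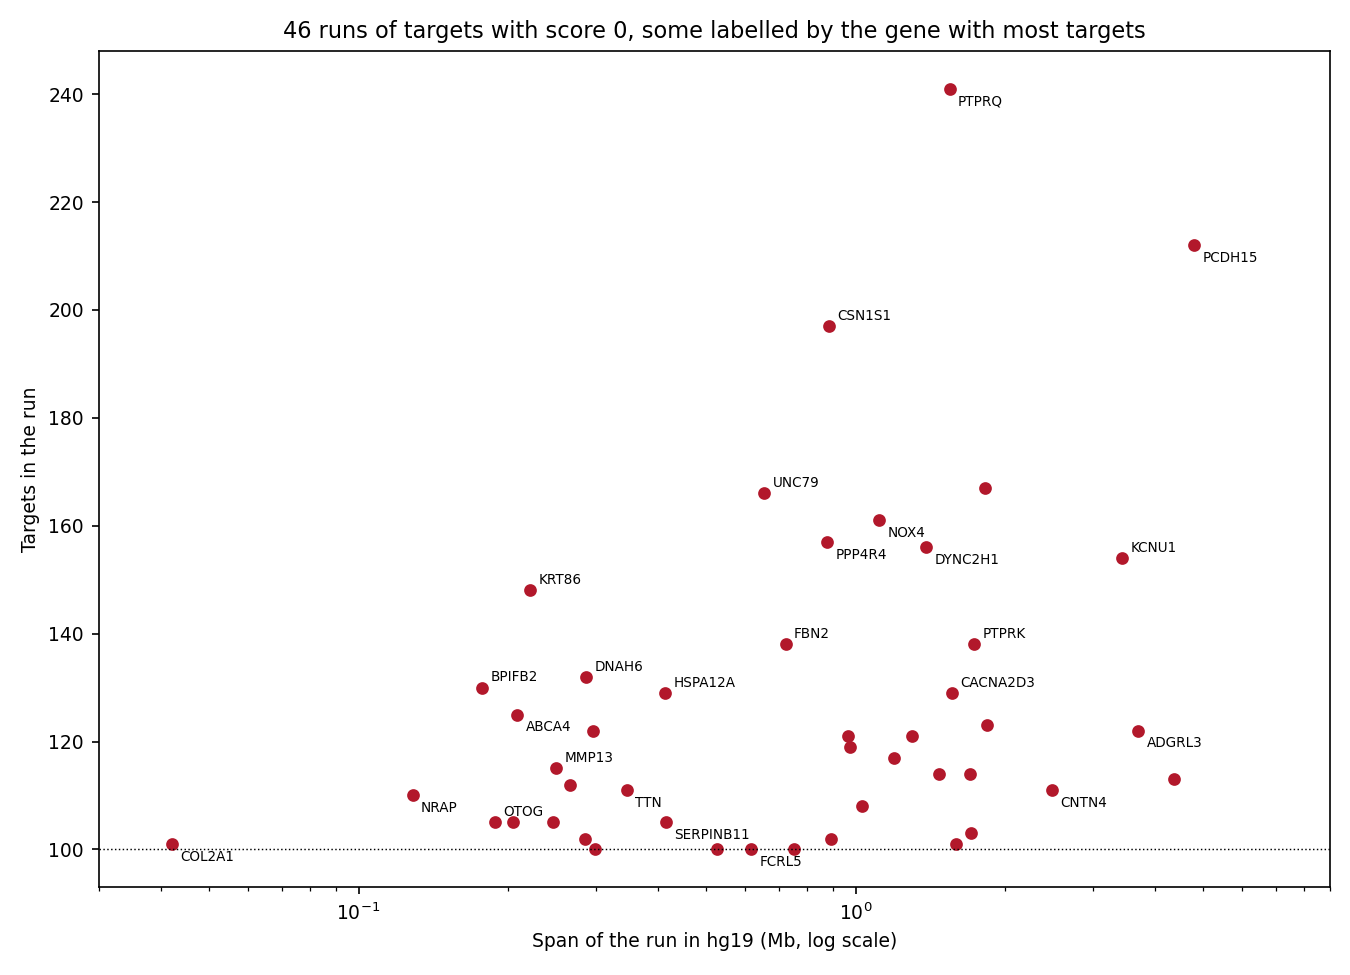
Number of targets against span in hg19 (Mb, log scale) for the 46 zero-score runs, with the gene that holds most targets named for some of the larger or more extreme ones. The dotted line is the limit of 100 targets. COL2A1 lies far left at 0.0422 Mb, and PCDH15 lies far right at 4.81 Mb.

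In 19 runs a single gene held over 50% of the targets, and in 11 it held over 70%. These were genes of many exons. DNAH11, a heavy chain of the dynein motors of cilia, held 121 of 122 targets in its run on chromosome 7 (99.2%). OTOG, which encodes otogelin of the inner ear's acellular membranes, held 96 of 105. DNAH6, another ciliary dynein heavy chain, held 117 of 132. COL2A1, the main collagen of cartilage, held 81 of 101. FBN2, the microfibril protein fibrillin 2, held 109 of 138. DYNC2H1, the motor of retrograde transport inside cilia, held 119 of 156. NRAP, a muscle protein of the sites where thin filaments are anchored, held 81 of 110. ABCA4, the retinoid transporter of photoreceptors, held 90 of 125. COL11A1, a minor fibrillar collagen, held 84 of 117. NALCN, the sodium leak channel of neurons, held 73 targets (71.6%) of its run. UNC79, which encodes a subunit associated with that channel, led a run of its own on chromosome 14 with 94 of 166 targets. The median share of the leading gene over the 46 runs was 42.9%.

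**Figure D3:**
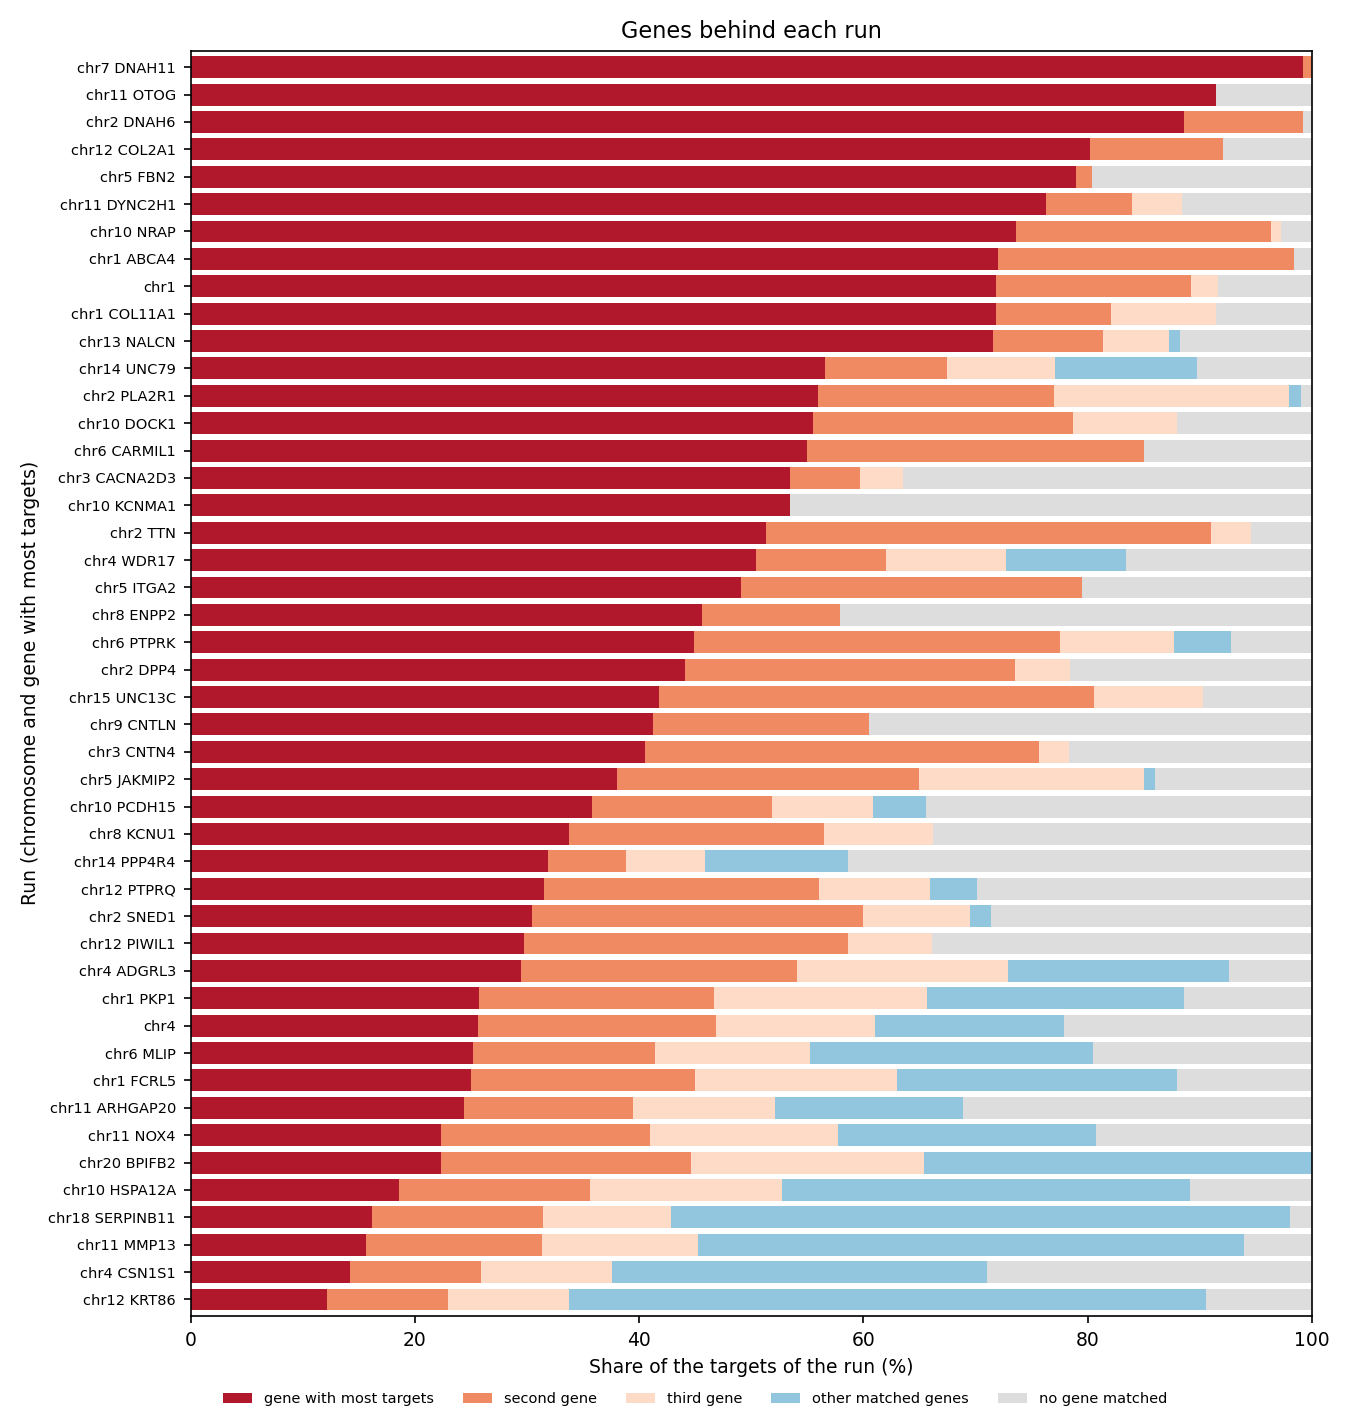
Share of each run's targets (%) matched to its leading gene, the 2 genes after it, other genes and no gene, for 46 runs ordered by the share of the leading gene, which is named for most of them. The share runs from 99.2% for DNAH11 to 12.2% for KRT86.

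Other runs were made of neighbouring genes of a family. The run on chromosome 12 from 52660498 to 52881987 held 10 type II keratin genes, which encode filament proteins of hair and epithelia and gave 134 of its 148 targets (90.5%). KRT81, KRT82, KRT83, KRT84, KRT85, KRT75, KRT6B and KRT6C lay wholly inside, and assignments among KRT81, KRT83 and KRT86, which are close copies, are uncertain. On chromosome 18, 9 serpins of clade B, which are mostly intracellular protease inhibitors, gave 103 of 105 targets (98.1%), and 7 of them lay wholly inside. On chromosome 20, 5 BPIF genes, of a family secreted in the airway and mouth, gave 124 of 130 targets (95.4%). On chromosome 1, 5 FCRL genes, which encode Fc receptor-like proteins of B cells, gave 88 of 100 targets (88.0%). On chromosome 11, 7 matrix metalloproteinase genes gave 96 of 115 targets (83.5%), with MMP1, MMP3, MMP8, MMP10, MMP12 and MMP13 wholly inside. On chromosome 10, 4 pancreatic lipase genes (PNLIP, PNLIPRP1, PNLIPRP2, PNLIPRP3) gave 69 of 129 targets (53.5%). These families were picked after the runs were seen.

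The run with most targets, on chromosome 12 from 80839171 to 82386210, held 241 targets. Its genes were PTPRQ (76 targets), a receptor phosphatase of hair cells, PPFIA2 (59), the synaptic scaffold liprin alpha 2, and ACSS3 (24), a mitochondrial acyl-CoA synthetase. The run on chromosome 10 from 52580211 to 57387383 was second with 212 targets and had the longest span, 4.81 Mb. It held PCDH15 (76 of its 77 targets), a cadherin of the hair-cell tip link, PRKG1 (34 of 34), a cyclic GMP-dependent kinase, and A1CF (19 of 27), a cofactor of apolipoprotein B RNA editing. The next, on chromosome 4 from 70504516 to 71389751, held 197 targets of 9 genes. Among them were the milk casein genes CSN1S1 (28 targets) and CSN2 (11), the enamel-associated ODAM (18) and the sulfotransferases SULT1B1 (14) and SULT1E1 (13).

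Other runs among the 10 with most targets were those of UNC79 (166 targets), NOX4 (161), PPP4R4 (157), DYNC2H1 (156), KCNU1 (154) and KRT86 (148). The NOX4 run on chromosome 11 from 88798843 to 89916277 held the NADPH oxidase NOX4 (36 targets) with FOLH1B (30), NAALAD2 (27) and 3 TRIM genes of recent duplication. TRIM49, TRIM49C and FOLH1B have near-identical copies elsewhere, and their assignment is uncertain. The PPP4R4 run on chromosome 14, from 94640921 to 95516866, held PPP4R4 (50), a phosphatase subunit, and 4 serpins of clade A with 42 targets. SERPINA1, the antitrypsin gene known for its high expression in liver, had all 10 matched targets inside. The KCNU1 run on chromosome 8 held 52 targets of this sperm potassium channel and 35 of the netrin receptor UNC5D.

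The 5 longest runs held 3 to 5 matched genes each. Besides the PCDH15 run, they included one on chromosome 4 from 62761349 to 66468122 (3.71 Mb, 122 targets). It was led by ADGRL3 (36), a synaptic adhesion receptor, with EPHA5 (30), an ephrin receptor, and TECRL (23). The KCNU1 run (3.44 Mb) was another, as was that of CNTN4 (45 targets) and CNTN6 (39) on chromosome 3 from 633688 to 3116650 (2.48 Mb). Among the 3 sparsest were those of ADGRL3 (32.9 targets per Mb) and PCDH15 (44.1). The widest stretch without a target inside any run was 0.963 Mb, in the ADGRL3 run, so no run was held together across an empty stretch of over 1 Mb. The densest were those of COL2A1 (2395 targets per Mb), NRAP (856) and BPIFB2 (734).

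Further runs either had 1 gene with over 50% of the targets or held several neighbouring genes. A pair of integrin genes for collagen receptors, ITGA2 (55 targets) and ITGA1 (34), gave 79.5% of a run of 112 targets on chromosome 5. PTPRK (62), a receptor phosphatase, shared its run of 138 with LAMA2 (45) and THEMIS (14), a signalling protein of T cells. CACNA2D3 (69), a calcium channel subunit, gave 53.5% of a run of 129 on chromosome 3, and DOCK1 (60), an activator of the GTPase Rac, 55.6% of a run of 108 on chromosome 10. ENPP2 (52), the enzyme autotaxin, lay with COLEC10 (14), a secreted lectin of liver, in a run of 114 on chromosome 8. UNC13C (43), a synaptic vesicle priming factor, lay with WDR72 (40), an enamel maturation gene, in a run of 103 on chromosome 15. PIWIL1 (36), a germline Argonaute protein, lay with RIMBP2 (35), a presynaptic scaffold, in a run of 121 on chromosome 12. MLIP (31), a muscle protein that binds lamin, led 7 genes in a run of 123 on chromosome 6, one of them HCRTR2 (12), an orexin receptor. ARHGAP20 (29) led a run of 119 on chromosome 11 that also held POU2AF1 (15), a coactivator of B cells. Runs led by WDR17 (61 of 121 targets), CNTLN (47 of 114) and SNED1 (32 of 105) also belonged to the set, beside those named below or at the limit of 100.

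Of the gene lists by symbol, 17 members had a target in a run, out of 659 members matched. The lists were chosen with earlier results of these data known, and 1.63% of all matched protein-coding genes had such a target. Contactins and their associated proteins had 2 of 11 (CNTN4 and CNTN6), and axonemal dyneins 2 of 13 (DNAH6 and DNAH11). Collagens had 2 of 39 (COL2A1 and COL11A1), and sodium and potassium channels 2 of 43 (KCNMA1 and KCNU1). Laminins had 1 of 12 (LAMA2), ephrin receptors 1 of 13 (EPHA5), cadherins and protocadherins 1 of 24 (PCDH15), ABC transporters 1 of 42 (ABCA4), and UGT and CYP genes 1 of 53 (UGT2A1). Solute carriers had 2 of 273 (SLC27A6 and SLC4A10, 0.733%). None was found among 40 ADAM and ADAMTS genes, 27 semaphorins and plexins, 15 GABA receptor genes, 3 CSMD genes, 19 spliceosome genes, 7 erythroid genes and 1 ribosomal protein gene. The lists also differed in targets per gene, with a median of 20 over all matched protein-coding genes. It was 133 in the dyneins, 78 in the collagens and 41 in the contactins. Among lists without a member in a run, it was 137 in the CSMD genes and 40 in the ADAM and ADAMTS genes. Whether the number of targets bears on the shares was not tested.

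The step in score at run edges was small in most cases. That the first target outside scores above 0 is fixed by the rule. It scored exactly 1 at 55 of the 92 edges (59.8%) and 2 at 18, against a median of 6 over all autosomal scores above 0, of which 16.6% were 1. Shorter zero-score runs were alike in this: the first outside score was 1 at 54.4% of edges of runs of 50 to 99 targets, 55.2% for 25 to 49 and 53.1% for 10 to 24. The mean score of the 10 targets outside an edge had a median of 0.4 (quartiles 0.1 and 3.53), against a median of 2.5 over every 10 neighbouring autosomal targets. A few steep edges raised its mean over edges to 3.20, against a mean score of 6.79 over all autosomal targets. It was below 1 at 58 edges. At 36 edges the first target was the single one above 0 among the 10, and 26 edges had the lowest mean possible, 0.1. Left and right edges had medians of 0.2 and 0.5. Runs of 50 to 99 targets had the same median of 0.4 outside their edges, runs of 25 to 49 had 0.4, runs of 10 to 24 had 0.6, and single zero targets had 3.6.

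**Figure D4:**
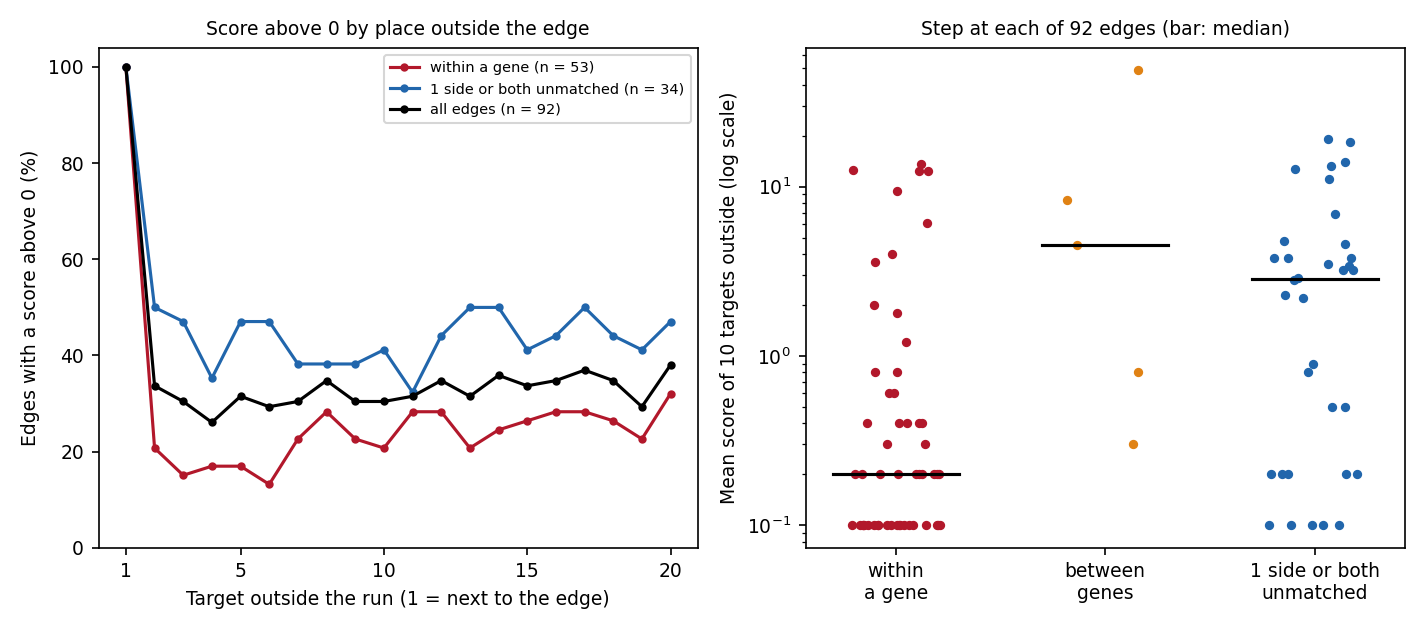
Left, share of edges (%) at which a target outside the run scores above 0, by its place from 1 (next to the edge) to 20, for edges within a gene, edges with a side unmatched and all 92 edges. Right, mean score of the 10 targets outside each edge (log scale), with medians as bars at 0.2 within a gene, 4.5 between genes and 2.85 where a side was unmatched.

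Most edges with genes on both sides cut through a gene. Both targets at the edge were matched at 58 edges, and at 53 of them they belonged to the same gene. Among all neighbouring autosomal pairs with both targets matched, 97.6% belonged to 1 gene, a larger share than at the run edges. At the 53 edges within a gene, the mean of the 10 targets outside had a median of 0.2, and 28 had no other target above 0 among the 10. The other 5 edges lay between genes, with a median of 4.5, and the 34 edges with a target unmatched on either side had a median of 2.85. The distance across the edge had a median of 320 nt within genes and 58936 nt between genes, and of 1410 nt (1409.5) over all edges. The score step and the distance thus moved together with the kind of edge, and their parts in the step were not tested.

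Genes cut by an edge mostly scored 0 or near 0 outside the run too. Of the protein-coding genes with 10 or more targets inside a run and 5 or more outside, 22 of 23 had no score above 3 outside. Over those 22, 51 of 492 outside targets scored above 0 and all the rest scored 0. Of all autosomal targets, only 47.0% scored 0. These genes were admitted for their zero-score targets in a run, so the low scores nearby are a description only. The 51 include targets next to an edge, which the rule sets above 0. DNAH6 had 1 of 30 above 0, DNAH11 2 of 31, COL11A1 3 of 38, DYNC2H1 4 of 43 and LAMA2, a laminin chain of muscle basement membrane, 9 of 81.

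TTN, the giant spring protein of the sarcomere, was the exception. Its run on chromosome 2, from 179632652 to 179979790, held 57 of its 443 matched targets, beside CCDC141 (44 targets). Of the 386 targets outside, 135 scored above 0, up to 116. TTN is on the minus strand, and the run covers its 5′ end. In the first 50 kb beyond the run's left edge, 1 of 55 targets scored above 0, and from 50 to 100 kb 10 of 116 did. From 100 to 150 kb 41 of 108 scored above 0 with a median of 0, and from 150 to 200 kb 59 of 77 did, with a median score of 16. From 200 to 250 kb the median was 3 over 30 targets. The antisense gene TTN-AS1 shares 13 of the 77 targets of the segment with the highest scores, and as the list marks every target as plus, the score cannot be divided between the pair.

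A few edges were steep. The steepest lay on chromosome 11 at the right end of the metalloproteinase run (from 102576243 to 102826314), where the next target stood 106829 nt away in DCUN1D5, a cullin neddylation factor. The 10 targets beyond it scored 20 to 118, with a mean of 48.5, while those left of the run averaged 0.1. The right edge of the DNAH6 run on chromosome 2 came next with a mean of 19.1. Its first outside target, from 85132844 to 85132943, scored 106 and lies where hg19 places TMSB10, the abundant actin-binding thymosin beta 10. The left edge of the ARHGAP20 run on chromosome 11 followed with 18.4, its first outside target, scored 66, lying in FDX1, the mitochondrial ferredoxin (matched at 5 or more targets). The left edge of the PIWIL1 run on chromosome 12 had a mean of 14.0 from 2 targets alone, which scored 113 and 27 before zeros returned. The right edge of the PCDH15 run had a mean of 13.5.

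The runs were seldom bounded by high scores on both sides. In 18 runs the mean of the 10 targets outside was below 1 on both sides, in 22 on 1 side, and in 4 it was 3 or more on both. Those 4 were led by ITGA2, ARHGAP20, COL2A1 and PIWIL1. The run of COL2A1 on chromosome 12 from 48368999 to 48411165 had means of 9.4 and 11.1. At its left edge, 1 target scoring 2 and then 4 zeros came before scores of 24 and 30.

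Targets inside runs had the full width more often than others. Exactly 100 nt was the width of 93.3% of run targets (5467 of 5862), against 87.8% of other targets on the same chromosomes and 91.4% of other targets with score 0. The share was higher in runs than in all other targets on 17 of 17 chromosomes, and higher than in other zero-score targets on 14 of 17. Short targets of 70 to 95 nt made up 1.36% of targets in runs, against 2.91% of other targets and 2.09% of other zero-score targets. Chromosomes 1 and 2, where widths of 96 to 99 nt are common in the list, contributed: such widths made up 0.687% of run targets there, against 10.1% of other targets and 3.14% of other zero-score targets. Without these chromosomes the full-width shares were 93.5% in runs, 90.3% in other targets and 92.1% in other zero-score targets.

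Gaps inside runs more often matched exons whose length is a multiple of 3, most of all in 5 runs. Gaps of up to 1000 nt were 59.7% of all gaps inside runs, with a median of 144 nt, against 57.4% and 149 nt among other targets. In this list a gap is usually an exon plus 1 nt, so a gap that leaves 1 when divided by 3 matches an exon whose length is a multiple of 3. Of 2769 gaps of 30 to 400 nt inside runs, 45.7% left 1, against 37.9% of those between other targets and 39.2% of those between other zero-score targets. The share was above 37.9% in 36 of 46 runs and had a median of 41.9%. It was highest in the runs of FBN2 (85.1%), NRAP (79.7%), COL11A1 (76.6%), COL2A1 (69.9%) and TTN (65.7%), which encode proteins built of repeated modules. It was lowest in that of CNTN4 and CNTN6 (25%). Without the 5 highest runs, an alternative added after the data were seen, it was 41.5%. Gaps of 55 nt, the collagen exon length of 54 nt plus 1, were 0.997% of gaps in runs (58 of 5816). They were 0.282% among other targets and 0.418% between other zero-score targets. The runs led by COL2A1 and COL11A1 are included, and no share without them is given here.

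**Figure D5:**
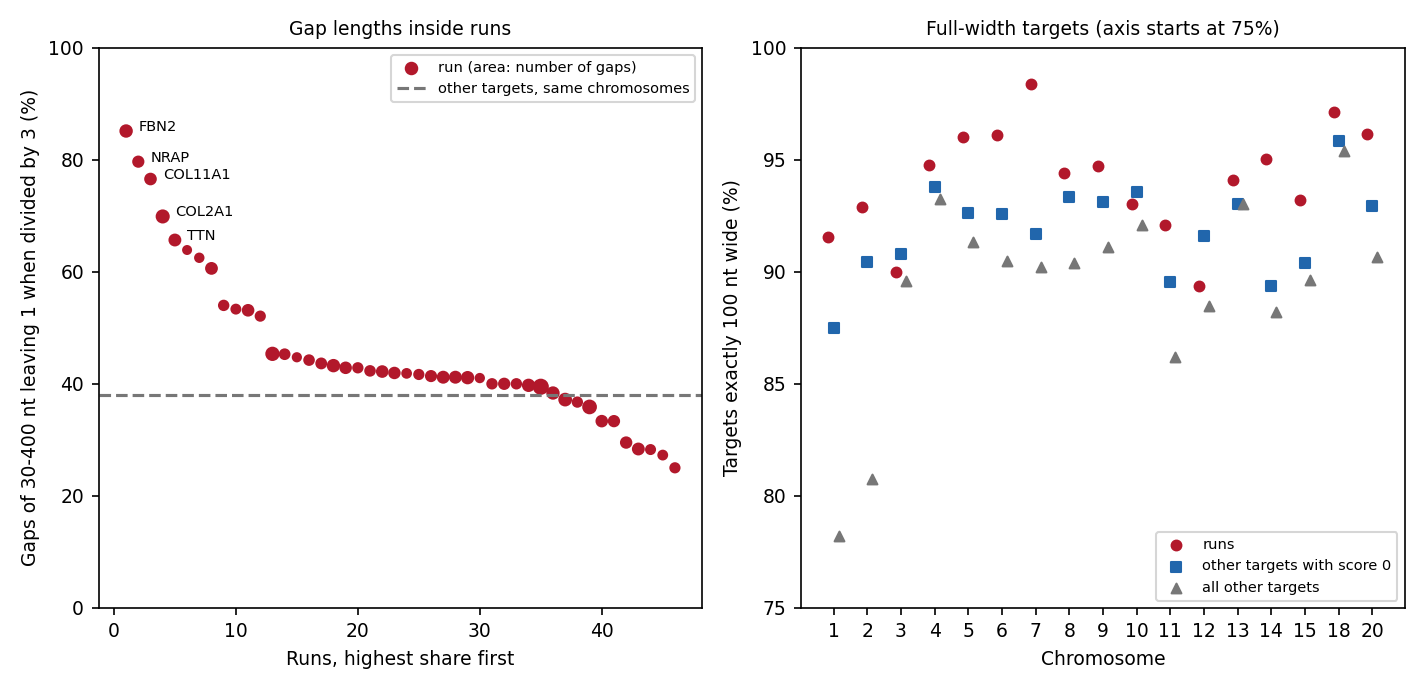
Left, share of gaps of 30 to 400 nt that leave 1 when divided by 3 (%) in each of 46 runs, with the dashed line at 37.9% for other targets on the same chromosomes and point area for the number of gaps. Right, share of targets exactly 100 nt wide (%) by chromosome for runs (red), other zero-score targets (blue) and all other targets (grey), on an axis that starts at 75%.

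No target was missing from the numbering inside any run. Targets are numbered along each chromosome, and among other targets on the same chromosomes 2843 numbers (0.963%) were skipped. Between other neighbouring zero-score targets 31 were skipped (0.0273%). At the 92 run edges 1 was skipped.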

How the data were processed

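Per the labels' protocols, the targets are intron ends of GENCODE release 12 less exons and highly transcribed K562 regions. The submitters' processing notes name hg19, Bowtie2, TopHat2 and bedtools, with no role stated. The score column, as deposited, holds whole numbers of unstated meaning, so no count model was used and no depth is known. One list serves 3 samples, in 1 group.

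Targets were sorted by start, and runs, gaps, widths and flanks of 10 targets were computed from them. Genes came from GENCODE release 29: their intron ends of 100 nt, less exons, were slid along the targets of a chromosome, and targets whose end agreed, or whose start agreed within 1 nt, at the best shift were counted. A target matched to several genes went to a protein-coding gene first, then to that with most matches. Overlapping genes and near-identical copies can be confused. The matching and the run finding were tested on simulated data.

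The rules for naming took the 10 runs with most targets, the 5 longest and the 3 densest and sparsest. They also took the 5 highest and lowest edge means and the runs nearest the limit, with the genes that held most targets. Further runs, such as those of ITGA2, DNAH11 and TTN, were named outside these rules. Some genes named, such as HCRTR2, held fewer targets of their run than genes left out. Members and lists were chosen with earlier results of these data known. Alternatives are given in the closing section. Python 3.11.15, numpy 2.4.6, pandas 2.3.3, scipy 1.17.1 and matplotlib 3.10.9 were used. Some of the runs, genes and a list chosen by these rules are not reported here.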

Additional observations from a re-analysis of the deposited data

How the results depend on the processing

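Of 89 values recomputed under the alternatives, 65 stayed within 1 SD between runs or edges, within the 95% binomial interval of a share or, for a count, within 1.5 times, and 24 moved further, the cause of which was not tested unless given. The number of runs was 340 with a minimum of 50 targets, 114 with 75, 9 with 150, and 166 when scores of 0 or 1 were allowed. The share of autosomal targets in runs was then 6.89%, 3.22%, 0.443% and 6.22%. It was 1.55% with targets of 70 nt or more and 1.67% with the chromosome 9 part kept. The share of gaps up to 1000 nt was 56.7%, 57.7% and 55.9% with minima of 50, 75 and 150, 58.3% with scores of 0 or 1, and 51.4% for gaps up to 500 nt. The share of gaps leaving 1 was 41.9%, 43.3% and 42.0% (41.96) with the 3 minima, 43.4% with scores of 0 or 1, and 41.5% without the 5 highest runs (added after the data were seen). At the original settings the share was 37.9% between other targets and 39.2% between other zero-score targets, and all these values were above both. The full-width share was 94.4% with a minimum of 150, 94.7% with targets of 70 nt or more and 95.7% for widths of 90 to 110 nt. Skipped numbers inside runs came to 1.27% with targets of 70 nt or more, since the targets left out leave gaps in the numbering. Medians of span, density, edge mean and edge distance stayed within 1 SD, which is wide for them, but some moved by over 1.5 times. The median span was 0.468 Mb with a minimum of 50 and 1.39 Mb with 150, against 0.881 Mb. The median edge distance was 2288.5 nt with a minimum of 50, 6396.5 nt with 150, 4357.5 nt with scores of 0 or 1, and 2122 nt without chromosomes 1 and 2 or with targets of 70 nt or more, against 1409.5 nt. The median edge mean was 2.5 with scores of 0 or 1, against 0.4, and the median of the 10 targets outside had a median of 0. Matching genes at 5 or more targets left 17 list members with a target in a run. No paired analysis was possible because every library belongs to the same group and shares a single score per target, and for the same reason no replicate could be left out. How depth bears on the scores, and so on where runs lie, is unknown, since the score's meaning is not stated.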

Other observations

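Some runs stood close together. On chromosome 11, 55 targets over 0.201 Mb separated the metalloproteinase run from the DYNC2H1 run, and 15 of them scored above 0, up to 118. On chromosome 14, 51 targets over 0.171 Mb separated the UNC79 run from the PPP4R4 run, and 33 scored above 0, up to 64. On chromosome 2, 112 targets over 1.73 Mb separated the PLA2R1 run, which holds a phospholipase A2 receptor gene and the integrin gene ITGB6, from the run of DPP4, a cell-surface peptidase. There 37 targets scored above 0, up to 88. These pairs were picked after their values were seen.

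Muscle genes lay together in a run of chromosome 1 from 201191693 to 201437468. It held TNNT2 (22 targets), the troponin T of heart, and TNNI1 (20), the troponin I of slow muscle, beside PKP1 (27), a desmosomal plakophilin, and LAD1 (16), a basement membrane protein. All matched targets of these 4 genes lay inside, and the 10 targets outside averaged 0.1 at the left edge and 2.8 at the right.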
